A study of Mus musculus with 6 samples.

Results

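The genes described here are 10 feedback and output genes of the ERK pathway: the Sprouty genes Spry1, Spry2 and Spry4, the Sprouty-related genes Spred1 and Spred2, the dual-specificity phosphatase genes Dusp4, Dusp5 and Dusp6, and the ETS factor genes Etv4 and Etv5. They were chosen by name from the 40413 genes of a count table, and all 10 passed the filter on low counts, as did 13705 genes in all. RNA sequencing had been run on 6 libraries of N2A-A5, a line of the mouse neuroblastoma Neuro-2a that the labels describe as acceptor cells. The 3 libraries at 96 h came from cells seeded in differentiation medium with 1% fetal bovine serum, 10 µM retinoic acid and no blasticidin. The 3 libraries at 0 h came from undifferentiated cells in medium with 10% serum and 10 µg/mL blasticidin, and no treatment. Serum, retinoic acid, blasticidin and days in culture all differed between the groups, so their effects cannot be told apart. The series' design text calls the libraries of a group biological replicates.

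Growth factor receptors switch on the small GTPase RAS, which activates the kinase chain RAF, MEK and ERK. ERK then phosphorylates ETS transcription factors and other targets, and among the genes induced are several whose proteins restrain the pathway: Sprouty and SPRED proteins act upstream, at the level of RAS and RAF, and DUSP phosphatases remove the activating phosphates from ERK itself. In neural crest-derived tumours such as neuroblastoma the pathway lies downstream of receptors such as RET and ALK. Only RNA was measured here, so the activity of ERK was not analysed.

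After 96 h the members did not move as one group. Spry1, Spry2, Spry4 and Spred1 fell, by 1.40-fold to 2.09-fold, while Spred2, Dusp4, Dusp6 and Etv5 rose by 1.20-fold to 1.37-fold. Dusp5 and Etv4 did not pass the test (edgeR's quasi-likelihood test, adjusted p under 0.05 over all genes tested). Among all 13705 genes 28.7% were higher and 28.8% lower, 57.4% in all, so 4 members in each direction lie near the share of genes at large. By at least 1.5-fold, 3 members fell (11.3% of all genes did) and 0 rose (18.6% of all genes did). The median log2 fold change was 0.08 over the members and 0.03 over all genes. In bulk RNA, fewer cells with a transcript and less transcript per cell cannot be told apart.

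The libraries held 16.8 M to 19.0 M counts at 96 h and 17.6 M to 20.9 M counts at 0 h (M for mega). Their makeup differed: the share of counts from the predicted gene Gm26917 was 30.5% ± 1.6 in the 96 h libraries and 20.2% ± 2.2 in the 0 h libraries (SD, n = 3 each). Levels below are counts per 1000000 counts (CPM) after scaling with TMM factors, which offset such differences, and the rises of several members depend on that scaling. The sympathetic neuroblast markers Phox2a, Hand2, Gata3, Isl1, Mycn and Chga were all detected. Hand2, a transcription factor gene of sympathetic neuroblasts, had 311 ± 6.6 CPM at 96 h and 381 ± 13 CPM at 0 h, and Phox2a, another, had 56.1 ± 3.9 CPM at 96 h and 77.6 ± 2.4 CPM at 0 h. Both fell, with every library at 96 h below every library at 0 h. Summed with scaling by library size only, markers of Schwann cells (8.82 to 9.45 CPM at 96 h, 2.63 to 5.54 CPM at 0 h), fibroblasts (10.3 to 11 CPM at 96 h, 4.50 to 5.40 CPM at 0 h), endothelial cells (1.66 to 3.68 CPM at 96 h, 2.10 to 3.49 CPM at 0 h) and macrophages (0.0594 to 0.319 CPM at 96 h, 0.165 to 0.239 CPM at 0 h) were low. Fabp7, Col3a1, Lum, Emcn and Aif1 were at 0 counts in all 6 libraries. Of the lists for these other cell types 3 genes passed, all higher: Erbb3, Pdgfra and Dcn. The part of such cells in the results below was not tested.

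**Figure D1:**
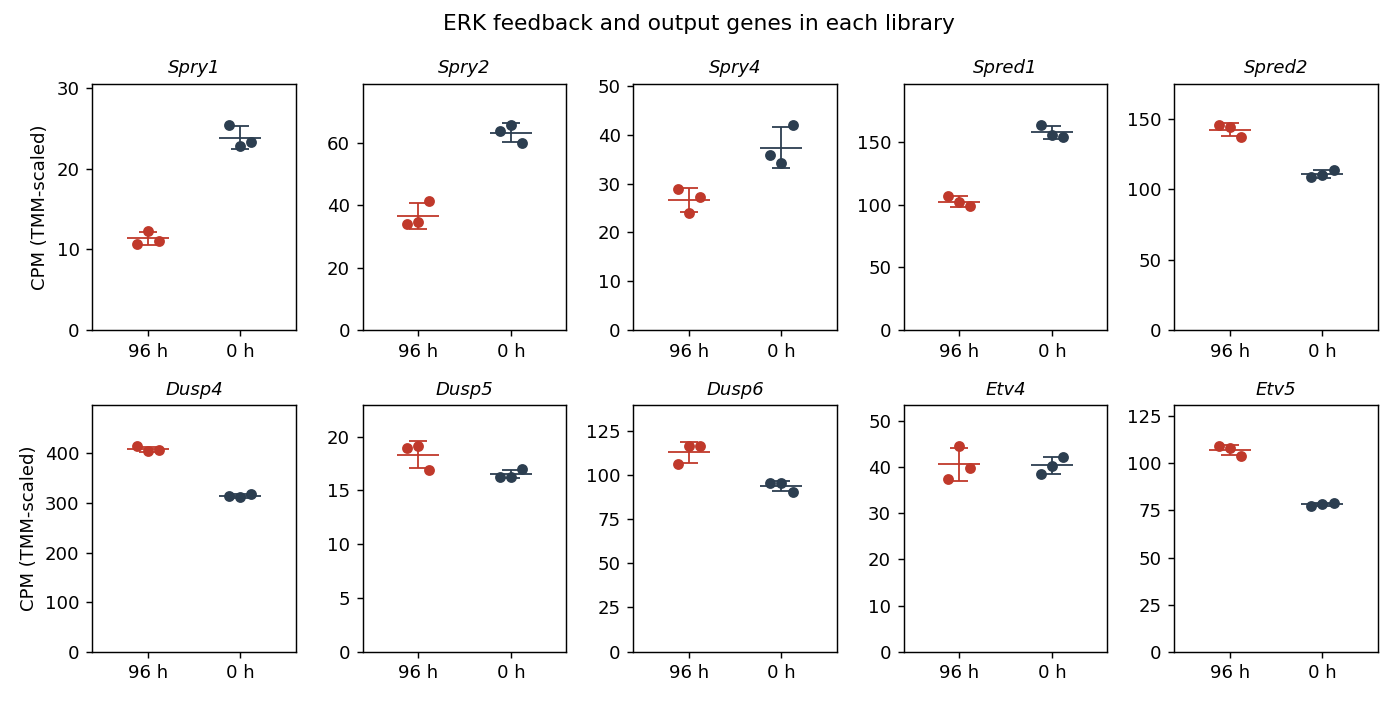
Level of each of the 10 genes in each library, as TMM-scaled CPM on axes that start at 0 (points: libraries; bar and whiskers: mean and SD, n = 3; 96 h left, 0 h right). The libraries of both times are apart for 8 genes and overlap for Dusp5 and Etv4.

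The 3 Sprouty members fell. Sprouty proteins are membrane-associated inhibitors that are induced by growth factor signalling and block the route from receptors to ERK. Spry1 had 10.7, 12.3 and 11.1 CPM at 96 h, against 25.5, 22.8 and 23.3 CPM at 0 h. Its level fell 2.09-fold (log2 fold change -1.06 ± 0.09, SE, adjusted p = 3.77e-07, edgeR). Every library at 96 h lay below every library at 0 h, and only 3.55% of tested genes had a more negative log2 fold change than Spry1.

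Spry2, the family member with the most counts in these cells, had 34.0, 34.6 and 41.5 CPM at 96 h, against 64.0, 65.9 and 60.1 CPM at 0 h. It fell 1.72-fold (log2 fold change -0.79 ± 0.08, SE, adjusted p = 1.29e-06, edgeR). The third library at 96 h was the highest of its group but stayed well below the lowest at 0 h. Spry4 had 28.9, 24.0 and 27.2 CPM at 96 h, against 35.9, 34.2 and 42.1 CPM at 0 h, a 1.40-fold fall (log2 fold change -0.49 ± 0.09, SE, adjusted p = 4.96e-04, edgeR). The groups did not overlap for Spry4 either, though its libraries were more spread. Groups did not overlap for 8 of the 10 members, and for 64.1% of all genes tested. Spry3, the remaining Sprouty gene, is no member and was named after its value was seen. It had 5.53 ± 0.90 CPM at 96 h and 4.02 ± 0.45 CPM at 0 h (SD, n = 3 each), without overlap between the groups, and did not pass (log2 fold change 0.46 ± 0.20, SE, adjusted p = 0.0676, edgeR). The CPM of Spry1, Spry2 and Spry4 together summed to 74.8 ± 4.5 at 96 h and 125 ± 1.4 at 0 h (SD, n = 3 each), a ratio of 0.600.

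Spred1 and Spred2, relatives of Sprouty that also restrain RAS signalling, moved in opposite directions. SPRED1 recruits neurofibromin, a RAS GTPase-activating protein, to the membrane. Spred1 had 107, 102 and 98.7 CPM at 96 h, against 164, 156 and 154 CPM at 0 h. It fell 1.54-fold (log2 fold change -0.62 ± 0.05, SE, adjusted p = 2.04e-07, edgeR), the smallest adjusted p among the members. Spred2 had 146, 144 and 137 CPM at 96 h, against 109, 110 and 114 CPM at 0 h, and rose 1.28-fold (log2 fold change 0.36 ± 0.05, SE, adjusted p = 2.79e-05, edgeR). Spred1 was the more abundant of the pair by counts in every library at 0 h and the less abundant in every library at 96 h. Together they summed to 245 ± 9.4 CPM at 96 h and 269 ± 3.8 CPM at 0 h, a ratio of 0.911 (0.764 with library size only).

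Because Spred1 and Spred2 moved apart, the 250 bases before their RefSeq starts (build GRCm38.p6, an earlier build than the mm39 of the counts) are set side by side, 5′ to 3′ and with GC boxes (GGGCGG on either strand, the site of SP1-type factors) in capitals. Spred1 lies at chr2:117120821-117121070 and Spred2 at chr11:19924192-19924441, both on the plus strand.
Spred1: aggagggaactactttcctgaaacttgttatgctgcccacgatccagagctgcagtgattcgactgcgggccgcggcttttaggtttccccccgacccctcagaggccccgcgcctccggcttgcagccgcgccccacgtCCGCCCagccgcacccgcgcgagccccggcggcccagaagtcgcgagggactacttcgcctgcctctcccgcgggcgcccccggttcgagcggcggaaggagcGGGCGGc
Spred2: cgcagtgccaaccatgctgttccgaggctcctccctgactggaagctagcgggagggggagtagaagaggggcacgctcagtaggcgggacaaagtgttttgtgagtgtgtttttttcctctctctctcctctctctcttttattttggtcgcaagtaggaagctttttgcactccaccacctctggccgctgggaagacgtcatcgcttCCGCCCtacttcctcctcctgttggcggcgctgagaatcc
The Spred1 window was 70.8% G and C with 31 CpG dinucleotides and 2 GC boxes, and the Spred2 window 56.0% with 12 CpG and 1 GC box. Over all 32851 such windows of the genome the medians were 52.4% and 6 CpG, and 32.7% held a GC box.

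The DUSP members that passed the test, Dusp4 and Dusp6, rose. DUSP6 is a cytoplasmic phosphatase selective for ERK, DUSP5 its nuclear counterpart, and DUSP4 a nuclear phosphatase that also accepts JNK and p38 kinases. Dusp4 had 414, 405 and 406 CPM at 96 h, against 314, 311 and 319 CPM at 0 h, and rose 1.30-fold (log2 fold change 0.38 ± 0.04, SE, adjusted p = 2.09e-06, edgeR). Dusp6 had 106, 116 and 116 CPM at 96 h, against 95.4, 95.5 and 90.3 CPM at 0 h, and rose 1.20-fold (log2 fold change 0.27 ± 0.05, SE, adjusted p = 8.04e-04, edgeR). For both genes all libraries at 96 h were above all at 0 h. Dusp5 had 19.0, 19.1 and 16.9 CPM at 96 h, against 16.3, 16.3 and 17.0 CPM at 0 h. Its groups overlapped through the third library at 96 h, and its log2 fold change of 0.15 had a 95% interval of -0.05 to 0.34 (adjusted p = 0.176, edgeR). With upper-quartile factors, where 33.0% of all genes were higher, Dusp5 passed at 0.23 (adjusted p = 0.0431).

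Among the members' upstream windows Dusp5 alone held CArG boxes, the site of serum response factor (10 bases, searched by its usual pattern, which reads the same on both strands), and it held a pair of them side by side. That window, chr19:53528895-53529144 on the plus strand of GRCm38.p6, is shown with the GC box and, after it, the CArG boxes in capitals.
Dusp5: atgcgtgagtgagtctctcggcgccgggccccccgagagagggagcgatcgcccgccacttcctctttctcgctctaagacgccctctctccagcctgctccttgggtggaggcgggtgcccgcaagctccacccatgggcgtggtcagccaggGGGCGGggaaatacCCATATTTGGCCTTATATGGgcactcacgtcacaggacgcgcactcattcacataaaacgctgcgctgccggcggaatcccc
The boxes span positions -82 to -73 and -72 to -63 from the start, and 1.47% of all windows held at least 1 such box. RefSeq windows were matched for 7 of the 10 members (8 windows, as Etv5 has 2), and Dusp4, Spry4 and Etv4 had none. An ETS site (CCGGAAG, in 6.91% of all windows), the octamer of the repressor CIC (TGAATGAA in 1.08% and TGAATGGA in 1.01%), a cyclic AMP response element (TGACGTCA, 1.55%), an AP-1 site (TGANTCA, 6.75%) and a retinoic acid response element (direct repeat with a 5-base spacer, 0.00913%), searched on both strands, were found in 0 of the 8 member windows. For the CIC octamer this holds for the listed forms only, both with G as the second base. Forms with C there were not searched. The windows of Spry2 and Dusp6 each hold such a form on the opposite strand, so CIC octamers are not absent from the member windows. The retinoic acid response element was searched only as an exact repeat with the 5-base spacer, which 3 of all 32851 windows held. A form that rare could hardly be met in 8 windows, so this search cannot show whether such elements were absent. Variant half-sites and other spacers were not searched. GC boxes were found in 5 of the 8 member windows, those of Spry1, Spred1, Spred2, Dusp5 and 1 of Etv5, and in 32.7% of all windows. The member windows had a median of 62.4% G and C and 22 CpG, against 52.4% and 6 CpG over all windows. These are matches of letters in short windows, not measured binding sites.

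Etv4 and Etv5, which encode ETS activators of the PEA3 group and are widely used as readouts of ERK output, differed. Etv5 had 109, 108 and 104 CPM at 96 h, against 77.1, 78.2 and 79.2 CPM at 0 h. It rose 1.37-fold (log2 fold change 0.45 ± 0.05, SE, adjusted p = 3.58e-06, edgeR), the largest rise among the members, with no overlap between the groups. Etv4 had 37.5, 44.5 and 39.8 CPM at 96 h, against 38.6, 40.3 and 42.3 CPM at 0 h. Its groups overlapped, and its log2 fold change of 0.01 (95% interval -0.15 to 0.17, adjusted p = 0.937, edgeR) turned below 0 in 5 alternative fits. Etv1, the other PEA3-group gene, fell 2.08-fold (21.0 ± 0.40 CPM at 96 h, 43.8 ± 3.7 CPM at 0 h, log2 fold change -1.06 ± 0.08, SE).

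The choice of library scaling moved falls and rises alike. Scaling by library size only shifts the whole distribution of log2 fold changes by -0.25 at its median, which takes falls further from 0 and brings rises closer to it. On that scale Spry1 (-1.32), Spry2 (-1.04), Spred1 (-0.88) and Spry4 (-0.74) stayed lower and past the test. Of the 4 rises Etv5 alone still passed, at 0.20 (adjusted p = 0.0111, edgeR). Dusp4 had 0.13 (adjusted p = 0.0639), Spred2 0.11 (adjusted p = 0.127) and Dusp6 0.02 (adjusted p = 0.867), and Etv4 became lower, at -0.24 (adjusted p = 0.0188). On that scale 1 member was higher and 5 were lower, where 17.6% of all genes were higher and 42.7% lower. The groups did not overlap there for 9 members, all but Dusp6, and for 65.2% of all genes. With upper-quartile factors, size factors of the DESeq2 type, the Wald test of DESeq2, limma-voom, other filters, removal of Gm26917 and mitochondrial genes, or any library left out, the 4 rises and 4 falls all kept their direction and passed. In those fits 31.3% to 63.3% of all genes passed in either direction.

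**Figure D2:**
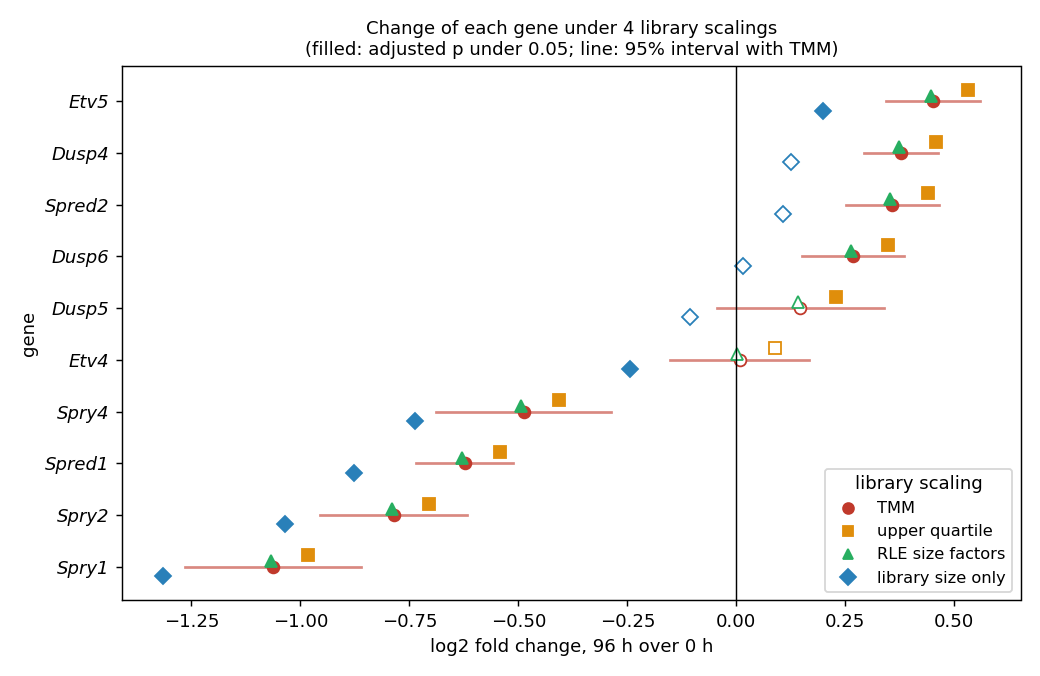
Log2 fold change of each gene, 96 h over 0 h, with 4 ways of scaling the libraries (marker shape and colour; filled markers have an adjusted p under 0.05; lines are 95% intervals with TMM). Spry1, Spry2, Spry4 and Spred1 lie below 0 with each scaling, while Dusp4, Spred2 and Dusp6 move next to 0 with library size only.

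Ratios between related genes within a library do not depend on scaling, and 6 pairs were compared. The Spred1 to Spred2 ratio of counts was 0.733, 0.706 and 0.723 at 96 h, against 1.51, 1.41 and 1.35 at 0 h. Its log2 value was lower by 0.98 at 96 h (-0.47 ± 0.03 at 96 h, 0.51 ± 0.08 at 0 h, SD, n = 3 each). The Etv4 to Etv5 ratio was 0.345, 0.412 and 0.383 at 96 h, against 0.501, 0.515 and 0.534 at 0 h, a log2 difference of -0.45. For both pairs the groups did not overlap, with an exact two-sided permutation p of 0.1, the smallest that 3 libraries against 3 allow (adjusted over 6 pairs, 0.3).

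The remaining ratios overlapped between the groups. Spry1 to Spry2 had a log2 difference of -0.27 (exact permutation p = 0.2), Spry4 to Spry2 0.31 (0.3), Dusp4 to Dusp6 0.11 (0.3) and Dusp5 to Dusp6 -0.12 (0.4). Summed over the members of a family, the DUSP members had 540 ± 0.83 CPM at 96 h and 425 ± 2.1 CPM at 0 h. The ETV members had 147 ± 4.6 CPM at 96 h and 119 ± 2.9 CPM at 0 h. Scaled by library size only, the ratio of 96 h to 0 h was 1.07 for the DUSP sum, 1.04 for the ETV sum, 0.764 for the SPRED sum and 0.505 for the Sprouty sum. These are not sums of whole families, as genes that are no members were left out. Of these, Spred3 (39.2 CPM at 96 h, 16.9 CPM at 0 h) moved against the SPRED sum. Etv1 (21.0 CPM at 96 h, 43.8 CPM at 0 h) moved against the ETV sum. Dusp2 (1.93 CPM at 96 h, 9.38 CPM at 0 h) and Dusp7 (5.85 CPM at 96 h, 11.3 CPM at 0 h) moved against the DUSP sum. Dusp1, Dusp8, Dusp10 and Dusp16 passed as higher, Dusp14 did not pass and Dusp9 was not tested. These DUSP genes other than Dusp2 were named after their values were seen.

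**Figure D3:**
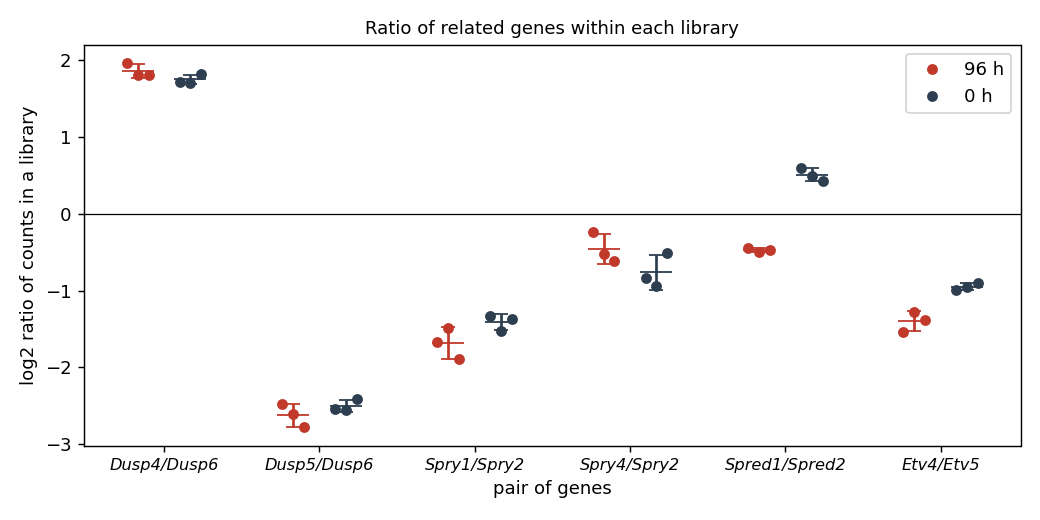
Log2 ratio of the counts of 2 related genes within each library (points: libraries; bar and whiskers: mean and SD, n = 3; 96 h left of 0 h in each pair). Spred1/Spred2 lies above 0 at 0 h and below 0 at 96 h, Etv4/Etv5 is lower at 96 h without overlap, and the other 4 pairs overlap.

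Levels were compared between genes per kilobase of the longest coding transcript in GENCODE M21. At 96 h Dusp4 was highest (149 ± 1.8 CPM per kb), followed by Dusp6 (40.4 ± 2.0), Spred2 (32.0 ± 1.2), Etv5 (26.9 ± 0.67), Spry2 (17.6 ± 2.0), Spred1 (17.0 ± 0.74), Etv4 (16.9 ± 1.5), Dusp5 (7.42 ± 0.52), Spry4 (5.61 ± 0.53) and Spry1 (4.11 ± 0.30). Libraries of Spry2 and Spred1, and of Spred1 and Etv4, overlapped in that order. At 0 h the order was Dusp4 (115 ± 1.5 CPM per kb), Dusp6 (33.5 ± 1.1), Spry2 (30.4 ± 1.4), Spred1 (26.2 ± 0.94), Spred2 (25.0 ± 0.61), Etv5 (19.7 ± 0.28), Etv4 (16.9 ± 0.77), Spry1 (8.60 ± 0.51), Spry4 (7.87 ± 0.87) and Dusp5 (6.69 ± 0.17). There Spred1 overlapped with Spred2, and Spry1 with Spry4. Dusp4 thus led at both times, and Spry2 held the fifth place at 96 h and the third at 0 h. These levels rest on assumed transcript lengths, since the transcripts used by the cells were not analysed.

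**Figure D4:**
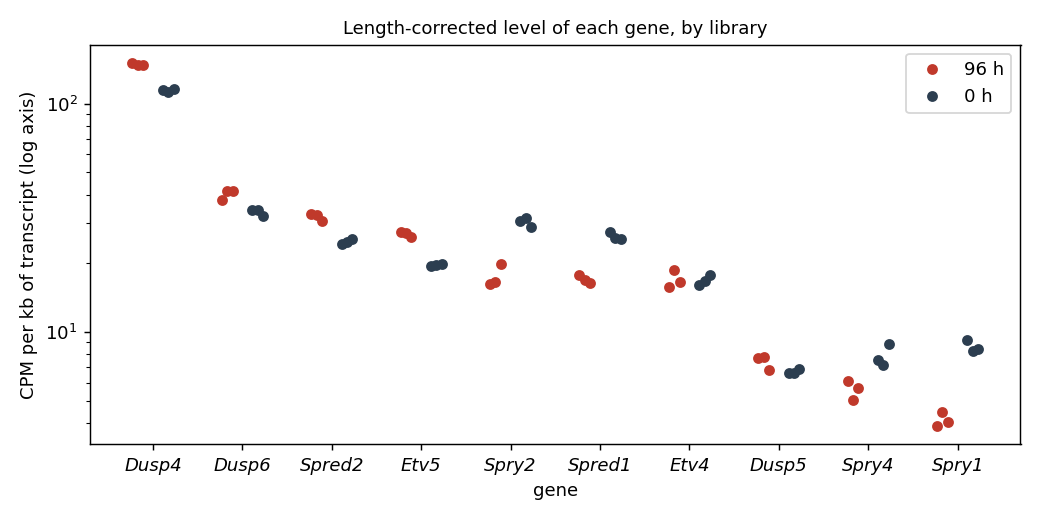
Level of each gene in each library as CPM per kb of the longest coding transcript, on a log axis, ordered by the mean at 96 h (96 h left of 0 h). Dusp4 stands above all other members at both times, and Spry1, Spry4 and Dusp5 are lowest.

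By the measure of likeness used here, the 3 genes whose log2 CPM followed Spred1 most closely over the 6 libraries were H3c15 (Pearson r 0.9992), Sdhd (0.9990) and H3c4 (0.9989), out of 9418 genes compared. The difference between the groups makes up most of such a correlation, and H3c15 and H3c4 belong to histone genes with near-identical copies, whose counts are uncertain.

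In the kinase chain itself, of 18 genes for RAS, RAF, MEK and ERK proteins and their scaffolds, 9 fell and 3 rose, with a median log2 fold change of -0.14, where 28.7% of all genes rose, 28.8% fell and the median was 0.03. Iqgap1, a scaffold of the chain, had 210 ± 7.9 CPM at 96 h and 316 ± 10 CPM at 0 h (log2 fold change -0.59 ± 0.05, SE), and Map2k2, which encodes MEK2, had 82.2 ± 4.3 CPM at 96 h and 108 ± 4.7 CPM at 0 h (-0.39 ± 0.06). Ksr2 and Ksr1 encode scaffolds of RAF and MEK. Ksr2 rose by 0.91 ± 0.24 (4.57 ± 0.62 CPM at 96 h, 2.43 ± 0.48 CPM at 0 h) and Ksr1 by 0.43 ± 0.15 (9.58 ± 0.96 CPM at 96 h, 7.13 ± 0.45 CPM at 0 h). Ksr1 lost its call when the first library at 96 h (adjusted p = 0.0979, edgeR), the first at 0 h (0.0656) or the second at 0 h (0.0612) was left out, and also without the low-count filter (0.0618) and with library size only (0.332). The number of higher kinase chain genes was 1 without the first or second library at 0 h, without the filter and with library size only. Of all genes, 3648 of 14219 and 3654 of 14098 were higher without those libraries. Without the filter 4070 of 26399 were higher, and with library size only 17.6%.

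Among 20 receptor tyrosine kinase genes, 13 were tested, 8 rose and 4 fell (28.7% of all genes rose and 28.8% fell). Alk (1.06 ± 0.07) and Insr (0.59 ± 0.06) had the smallest adjusted p among the rises, and Ret (-0.98 ± 0.04) and Igf1r (-0.75 ± 0.05) among the falls. Of 14 tested adaptor and RAS regulator genes 4 rose, 3 fell and 7 did not pass (median -0.08), close to the shares of all genes. Scaling by library size alone gave 3 higher genes and 8 lower, where 17.6% of all genes were higher and 42.7% lower. Gab2, a docking protein for the phosphatase SHP2, rose 3.08-fold (45.2 ± 1.5 CPM at 96 h, 14.6 ± 0.91 CPM at 0 h). Ptpn11, which encodes SHP2, fell (-0.47 ± 0.05), as did Nf1, the neurofibromin gene (-0.32 ± 0.06).

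Of 16 other negative regulators tested 8 were higher and 5 lower, with a median log2 fold change of 0.40, where 28.7% of all genes were higher and 28.8% lower. Under library size alone the counts were 6 higher and 6 lower, against 17.6% and 42.7% of all genes. Spred3, which completes the SPRED family, rose 2.31-fold (39.2 ± 4.4 CPM at 96 h, 16.9 ± 0.96 CPM at 0 h) and Paqr3, a Golgi protein that tethers RAF kinases, rose 4.50-fold (55.6 ± 3.9 CPM at 96 h, 12.3 ± 1.5 CPM at 0 h). Il17rd, the membrane inhibitor also called SEF, fell 2.84-fold (10.0 ± 0.42 CPM at 96 h, 28.5 ± 0.40 CPM at 0 h). Dusp2, a nuclear phosphatase of immediate-early type, fell 4.84-fold (1.93 ± 0.19 CPM at 96 h, 9.38 ± 0.38 CPM at 0 h).

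Of 16 tested genes for ERK-regulated kinases, ETS factors and CIC, 3 rose, 5 fell and 8 did not pass (median 0.02), where 28.7% of all genes rose and 28.8% fell. Under library size alone the counts were 1 higher and 10 lower, against 17.6% and 42.7% of all genes. Leaving out the first or the third library at 96 h, or the second at 0 h, left 1 higher gene (of 17, 16 and 17 tested). Over all genes 3505 of 14104, 3479 of 14010 and 3654 of 14098 were then higher. Mknk1, a kinase of the translation factor eIF4E, rose 3.40-fold (15.7 ± 1.5 CPM at 96 h, 4.62 ± 1.1 CPM at 0 h). Elk4 (-0.57 ± 0.07), a ternary complex factor, and Rps6ka1 (-0.42 ± 0.07), which encodes the kinase RSK1, fell. Rps6ka2 was higher by 0.14 ± 0.05 (adjusted p = 0.0231, edgeR), but was at -0.11 with library size only and lost its call when the first (adjusted p = 0.101) or the third (0.0525) library at 96 h or the first (0.119) or second (0.0630) at 0 h was left out, and without the filter (0.187). Cic, whose protein represses Etv4, Etv5 and other ERK outputs in mammals, had a log2 fold change of 0.08 and did not pass (adjusted p = 0.237, edgeR; named after its value was seen).

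Of the other output genes 11 of 14 were tested, 4 rose and 4 fell, with a median of -0.09, where 28.7% of all genes rose and 28.8% fell. Under library size alone they were 2 higher and 5 lower, against 17.6% and 42.7% of all genes. Without 96 h replicate 3 there were 2 higher, and 3479 of all 14010 genes were. Egr1, an immediate-early zinc finger factor, fell 2.70-fold (9.71 ± 1.1 CPM at 96 h, 26.3 ± 1.3 CPM at 0 h), beside the fall of Etv1 given above. Lif, a cytokine gene, rose 5.33-fold at low level (2.46 ± 0.36 CPM at 96 h, 0.463 ± 0.15 CPM at 0 h), and Ier3, a stress and growth factor response gene, rose 2.04-fold (4.57 ± 0.96 CPM at 96 h, 2.25 ± 0.51 CPM at 0 h). Epha2, Epha4 and Fosl1 were close to 0 and not tested. All values with ± that follow a log2 fold change are its SE from edgeR.

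**Figure D5:**
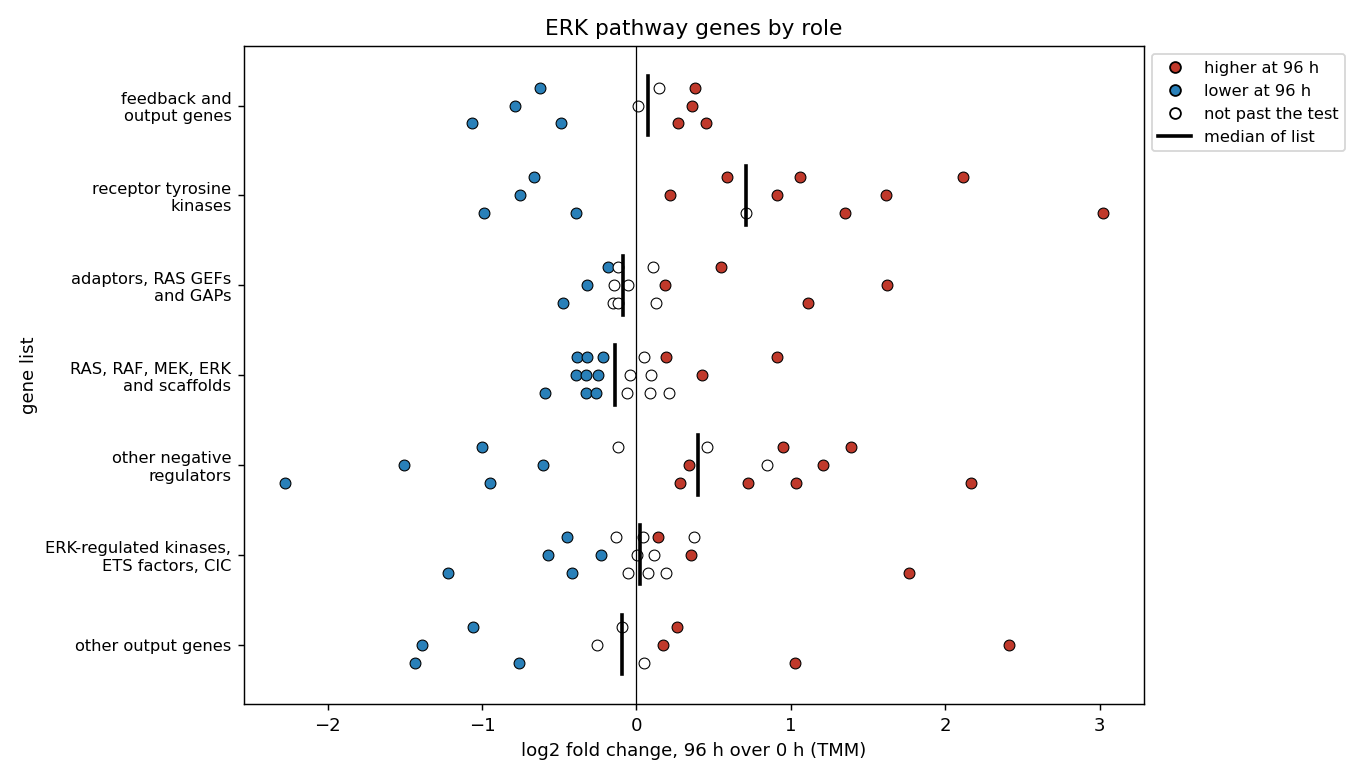
Log2 fold change (96 h over 0 h, TMM) of each tested gene, by role in the pathway (red: higher; blue: lower; white: not past the test; vertical bar: median of the list). The kinase chain spans -0.59 to 0.91, the 10 feedback and output genes -1.06 to 0.45, and the other negative regulators -2.28 to 2.17.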

How the data were processed

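The table that the authors deposited holds estimated counts per gene (expected counts, which need not be whole), not scaled for depth, and 6 columns matched 6 libraries by the library name in the labels. The submitters' processing notes name mm39, Salmon 1.10.1, FastQC 0.12.1 and DESeq2 1.52.0. What each did, and the annotation and strand setting behind the authors' counts, is not given in the sources used here. Per the labels' protocols, RNA was depleted of ribosomal RNA and made into stranded libraries.

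Counts were rounded to whole numbers. In edgeR 4.0.16 (R 4.3.3) genes were filtered with filterByExpr, scaled with TMM and compared with the quasi-likelihood F test, with Benjamini-Hochberg adjustment over all 13705 genes tested (threshold 0.05). The SE is the log2 fold change over the square root of F. The code was tested on simulated data. Alternatives were other scalings and filters, limma-voom (limma 3.58.1), DESeq2 1.42.0, a replicate block, removal of Gm26917 and mitochondrial genes, and leaving out each library. Log2 CPM for likeness used a prior count of 2 and genes with a mean of at least 5 CPM. Libraries of a group differed beyond sampling noise (chi-square per degree of freedom 6.37 to 13.5).

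Members and gene lists were chosen with earlier results of these data known. Named genes are the members and, per list, the 2 higher and 2 lower genes with the smallest adjusted p, plus genes said to be chosen otherwise. Some genes that the lists or this rule hold are not reported here. In GENCODE M21 genes on the opposite strand overlap exons of Spry1 and Dusp5. Whether strand was used in counting is not known, so their reads could be mixed. The one at Spry1, Gm42922, had 20 counts over all 6 libraries, and the one at Dusp5 was not among the genes counted. Promoter windows are RefSeq's, of GRCm38.p6.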

Additional observations from a re-analysis of the deposited data

How the results depend on the processing

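Of the 10 members, 8 kept their direction in every alternative. Dusp5 was at -0.11 with library size only, and Etv4 was at -0.24 with library size only, -0.028 without the low-count filter and between -0.066 and 0.050 with 1 library left out. Rps6ka2 was at -0.11 with library size only. With that scaling 17.6% of all genes were higher (2409 of 13705) and 42.7% lower. Higher were 1 of 10 members, 1 of 18 kinase chain genes, 1 of 16 ERK-regulated genes and 2 of 11 other output genes. Lower were 8 of 14 adaptor genes and 10 of 16 ERK-regulated genes. Without the low-count filter 4070 of all 26399 genes were higher and 4180 lower. There 5 of 17 adaptor genes were lower. Higher were 1 of 18 kinase chain genes, 1 of 17 ERK-regulated genes and 2 of 14 other output genes. Upper-quartile factors gave 6 of 16 ERK-regulated genes higher, where 33.0% of all genes were higher. The stricter filter (50 counts in 3 libraries) also gave 6 of 16, where 3546 of 11026 genes were higher. With 1 library left out the higher genes numbered 1 to 4 in the kinase chain, 1 to 3 among ERK-regulated genes and 2 to 4 among other outputs. Over all genes 3458 to 3796 were then higher, of 13985 to 14222 tested. Why these values moved was not tested.

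Replicate numbers were not found to pair the libraries: deviations of same-numbered libraries correlated at -0.0136, 0.0144 and -0.00496, and only 96 h replicate 2 correlated best with its own number. A replicate block gave 3854 higher and 3858 lower genes, against 3927 and 3942 without it, and 4 higher and 4 lower members. Spry1 and Spry2 had 161 to 745 counts per library at 96 h, and counting error is larger for genes with fewer counts, such as Lif and Dusp2.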
